A study of Homo sapiens with 6 samples.

Results

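The genes described here are enzymes that write or remove methyl marks on histones and DNA, with 3 partner proteins of such enzymes. They were taken by symbol from a fixed list of 57 names, and all 57 were found among the 16407 genes of the deposited table. They comprise 35 writers, 19 erasers, and 3 partner proteins (EED, SUZ12 and UHRF1) that carry no methyltransferase activity of their own. Writers use S-adenosylmethionine as the methyl donor, though KMT2E, counted among them, has little known enzyme activity. The RNA came from C666-1, an established human cell line derived from a nasopharyngeal carcinoma and harbouring Epstein-Barr virus. Cells of the first group, called complete medium, were kept for 24 h in a minimal essential medium without non-essential amino acids, with serine and glycine each added back at 0.4 mM. Cells of the second group, called the deprived medium, were kept for 24 h in that medium without serine and glycine. Both groups had 4.5 g/L glucose and 10% dialyzed serum, and each comprised 3 libraries, numbered 1 to 3 in the labels. Whether a group's libraries were separate cultures is not stated in the labels, so p-values reflect only how far these libraries varied, and that variation may be technical. It is 1 cell line, and no protein, mark or metabolite was measured.

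Serine and glycine feed the folate and methionine cycles, which regenerate S-adenosylmethionine, the donor that histone and DNA methyltransferases consume. Histone lysine writers are largely specific for a residue: the KMT2 and SETD1 enzymes act on H3K4 at promoters and enhancers, SUV39H, EHMT and SETDB enzymes on H3K9 in repressed chromatin, EZH enzymes on H3K27 within the polycomb complex PRC2, and SETD2 and the NSD enzymes on H3K36 in and around transcribed genes. Erasers use other cofactors: KDM1A and KDM1B use flavin, while the JmjC demethylases and the TET enzymes, which oxidise 5-methylcytosine, use oxygen, iron and 2-oxoglutarate. In tumours, genes of several of these families are recurrently mutated or changed in level, and EZH2 and the maintenance DNA methyltransferase DNMT1 are known as proteins of proliferating cells.

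The 6 libraries held 16612189 to 17030352 estimated counts, so depth was nearly even. Of 9 epithelial markers, KRT7, KRT18 and KRT8 were abundant, at 1930, 716 and 486 CPM (counts scaled to the effective library size) in complete medium, while KRT5 and CDH1 were at 0.10 and 0.341 CPM, too low to be tested. The summed level of the 9 was 3154 to 3506 CPM in complete medium and 2479 to 2652 CPM in the deprived medium, and its part in the results below was not tested. Among markers of other cell types 5 of 8 leukocyte genes were in the table and summed to 50.8 to 60.8 and 37.4 to 40.7 CPM, nearly all of it CD68, which epithelial cells also make in lysosomes, and PTPRC was at 0.000 and 0.0594 CPM. The 5 of 6 fibroblast genes in the table summed to 43.8 to 53.0 and 40.6 to 51.3 CPM, and the 3 endothelial genes to 1.14 to 2.21 and 1.59 to 2.86 CPM.

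Few of the members were called, and those called changed by less than 1.5-fold. Of 56 members tested, 2 were higher and 4 were lower in the deprived medium (edgeR, quasi-likelihood, Benjamini-Hochberg adjusted p under 0.05). Those higher were SETD2, which trimethylates H3K36, and the JmjC demethylase KDM7A. Those lower were the arginine methyltransferase PRMT1, the SMYD methyltransferase SMYD3, the PRC2 subunit EED and the JmjC demethylase KDM4C. Over all 12548 genes tested, 6.95% were called, 2.73% higher and 4.22% lower, so the 10.7% of the members called is near the background and is no result about the members as a group. TET1 alone was left out by the filter on low counts. The CPM of the media did not overlap in 13 higher and 8 lower members, against 32.6% of all tested genes, and 8 members in each direction had an unadjusted p under 0.05, against 27.3%. In bulk RNA, fewer cells with a transcript and less of it per cell cannot be told apart.

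Few writers and few erasers were called, and no test of a difference between the classes was made. Of 35 writers, 1 was higher, 2 were lower and 32 were not called, and their median log2 change was 0.08 (quartiles -0.14 and 0.13). Of 18 tested erasers, 1 was higher, 1 was lower and 16 were not called, and their median was also 0.08 (quartiles -0.01 and 0.14). The median over all tested genes was -0.0007. Of the 3 partner proteins, EED was lower and the others were not called. With the shared library numbers as a block, 8 members were higher and 7 lower, against 11.1% and 13.2% of all tested genes: 5 writers and 3 erasers were higher, and 4 writers, 2 partner proteins and 1 eraser were lower. The calls depended on which libraries were used, and library 1 differed most from the others of its group in both media. When replicate 2 or 3 was left out of either medium, edgeR called 0 of all tested genes, and so 0 members, while 2173 and 2494 genes (complete medium) and 2846 and 2624 genes (deprived medium) had an unadjusted p under 0.05. Without replicate 1 of complete medium 2 members were higher and 4 lower, but SETD2 was lost (adjusted p = 0.0523) and PHF8 was gained. Without replicate 1 of the deprived medium 4 were higher and 5 lower. Without both libraries numbered 1 the counts were 14 and 8. These counts have a background that moved too. With all 6 libraries, 343 genes were higher and 529 lower among all tested genes. Those totals became 530 and 788 when library 1 was dropped from complete medium only, and 758 and 979 when dropped from the other medium only. Dropping it from both gave 1696 and 1947, so the larger member counts are no result about the members as a group.

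**Figure D1:**
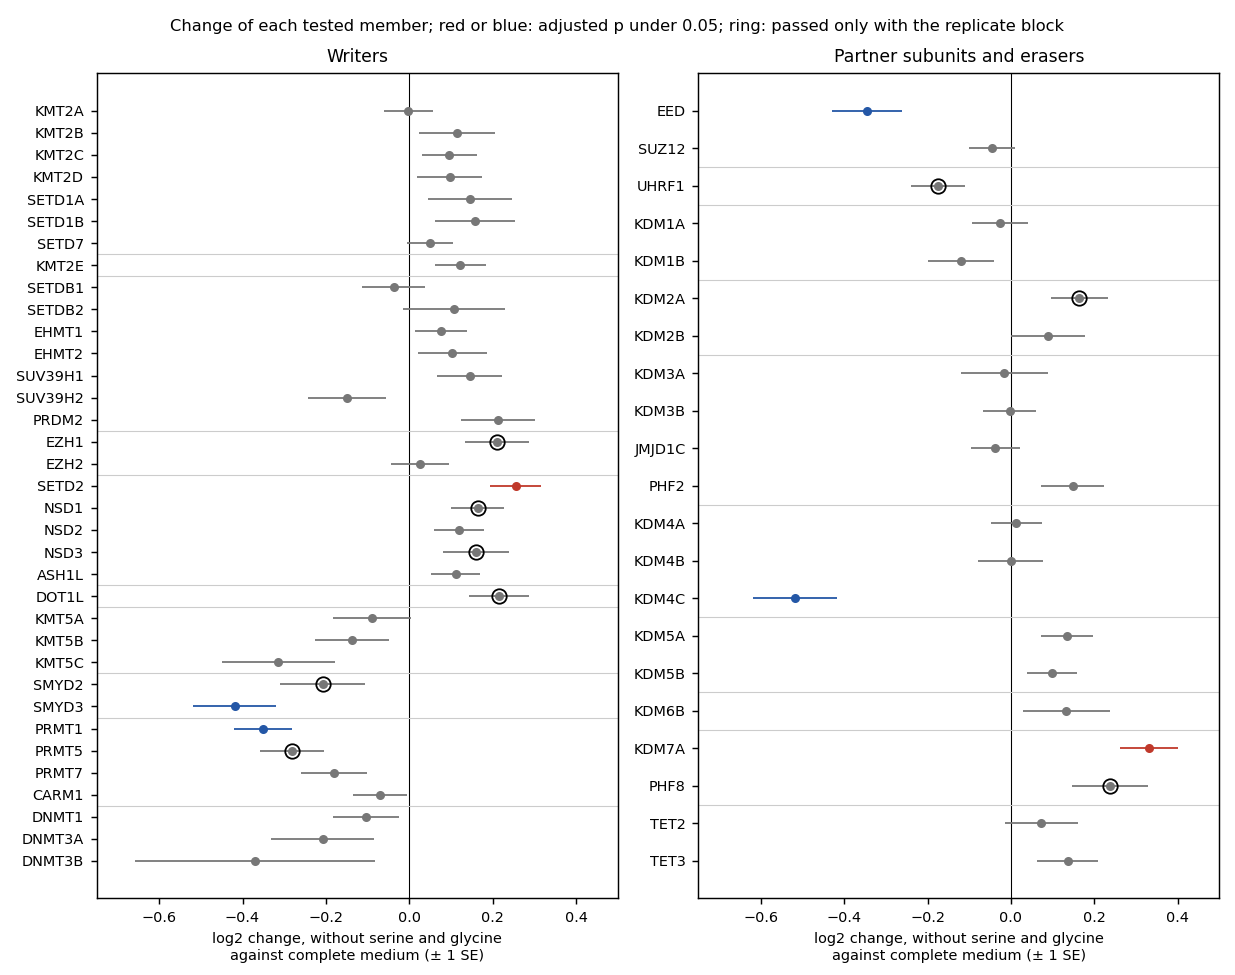
Log2 change of each of the 56 tested members (horizontal axis, deprived against complete medium, ± 1 SE from edgeR), with writers on the left and partner proteins and erasers on the right, and thin lines between roles. Red and blue mark the 2 higher and 4 lower members at an adjusted p under 0.05, and rings mark those that passed only with the replicate block, while most other members lie within 0.2 of zero.

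The 4 arginine methyltransferases among the members had negative changes, of which that of PRMT1 passed the test. PRMT1, the main enzyme of asymmetric arginine dimethylation (NCBI Gene 3276, chromosome 19, 49676153 to 49688447 on GRCh38.p14), was at 193, 224 and 206 CPM in complete medium and at 156, 170.3 and 161 CPM in the deprived medium. The groups did not overlap, and the highest value without serine and glycine lay below the lowest value with them. PRMT1 fell by 0.35 on the log2 scale (SE 0.069, adjusted p = 0.0251), a change of -21.6%. PRMT5, the main enzyme of symmetric dimethylation, was at 133, 149 and 134 CPM and at 125, 109.5 and 107.7 CPM. Its groups did not overlap either, library 1 of the deprived medium being the nearest to complete medium. Its log2 change was -0.28 (SE 0.076, adjusted p = 0.0518 by edgeR, and 0.0135 with the replicate block). PRMT5 shares 27.1% of its annotated exonic bases with the antisense gene PRMT5-AS1 in GENCODE 29, and since strand information is not stated, reads of the pair cannot be told apart.

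PRMT7, which leaves monomethyl arginine, was at 46.9 ± 1.66 and 41.4 ± 3.54 CPM (SD, n = 3), a log2 change of -0.18 (adjusted p = 0.177 by edgeR). CARM1, a coactivator enzyme that acts on histone H3, was at 61.3 ± 0.690 and 58.4 ± 2.94 CPM, with a log2 change of -0.07 with a 95% interval of -0.21 to 0.07 (adjusted p = 0.515 by edgeR), and opposite-strand exons of YIPF2 overlap 19.9% of its exonic bases. Outside the member list PRMT3, which methylates a ribosomal protein, was lower in the deprived medium (70.1 ± 2.19 against 51.0 ± 5.15 CPM), by 0.46 on the log2 scale (adjusted p = 0.0222 by edgeR). The other arginine methyltransferases outside the member list, PRMT2, PRMT6 and PRMT9, had positive log2 changes of 0.14, 0.08 and 0.05 and were not called (adjusted p = 0.260, 0.649 and 0.727 by edgeR). The log2 ratio of PRMT1 to CARM1 was 1.76 ± 0.121 in complete medium and 1.48 ± 0.026 in the deprived medium, without overlap.

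The promoters of 4 called members and of PRMT5, which was not called in the main fit, are shown to describe their motif content. EED and SMYD3, which were called lower, are not shown, so the windows are a partial set of the called members. The windows are the 250 bases before a start listed in RefSeq (GRCh38.p14), written 5′ to 3′ on the gene's strand. Capitals mark matches, on either strand, to the E-box CACGTG, the CCAAT box CCAAT, the GC box GGGCGG, the ETS site CCGGAAG, the NRF1 core GCATGCG or the YY1 core AAGATGG. For PRMT1, SETD2 and KDM4C the window lies inside the annotated span of the gene, so other annotated transcripts begin upstream. The windows are chr19:49677021-49677270 on the plus strand for PRMT1, chr14:22929377-22929626 on the minus strand for PRMT5, chr3:47164114-47164363 on the minus strand for SETD2, chr7:140176984-140177233 on the minus strand for KDM7A and chr9:6757723-6757972 on the plus strand for KDM4C.
PRMT1: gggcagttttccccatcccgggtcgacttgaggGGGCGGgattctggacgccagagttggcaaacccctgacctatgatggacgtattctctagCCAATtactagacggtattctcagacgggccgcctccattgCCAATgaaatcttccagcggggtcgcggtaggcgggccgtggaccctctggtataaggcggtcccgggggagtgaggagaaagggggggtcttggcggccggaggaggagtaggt
PRMT5: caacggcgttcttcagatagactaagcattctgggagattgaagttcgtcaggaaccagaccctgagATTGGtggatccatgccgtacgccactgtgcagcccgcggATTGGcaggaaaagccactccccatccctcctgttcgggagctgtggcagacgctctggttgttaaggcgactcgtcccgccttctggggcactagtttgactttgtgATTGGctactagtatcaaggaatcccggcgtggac
SETD2: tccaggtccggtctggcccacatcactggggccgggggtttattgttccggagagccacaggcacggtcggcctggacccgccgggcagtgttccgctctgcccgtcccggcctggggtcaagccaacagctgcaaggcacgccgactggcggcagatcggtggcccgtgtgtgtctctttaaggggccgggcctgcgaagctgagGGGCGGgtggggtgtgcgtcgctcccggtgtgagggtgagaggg
KDM7A: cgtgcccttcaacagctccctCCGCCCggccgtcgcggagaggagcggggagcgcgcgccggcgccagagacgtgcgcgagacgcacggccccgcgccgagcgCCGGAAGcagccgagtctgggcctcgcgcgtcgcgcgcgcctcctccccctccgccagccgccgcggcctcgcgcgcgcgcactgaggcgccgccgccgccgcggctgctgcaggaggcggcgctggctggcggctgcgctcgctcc
KDM4C: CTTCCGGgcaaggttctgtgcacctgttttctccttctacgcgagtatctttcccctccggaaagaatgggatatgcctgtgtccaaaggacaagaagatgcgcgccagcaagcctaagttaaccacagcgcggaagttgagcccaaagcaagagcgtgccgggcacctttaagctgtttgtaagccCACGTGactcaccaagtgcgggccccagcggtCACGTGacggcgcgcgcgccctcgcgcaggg

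The windows of both arginine methyltransferases hold CCAAT boxes, 2 in PRMT1 and 3 in PRMT5. A CCAAT box was found in 32.9% of 14897 promoter windows of tested genes, and 24 of the 54 members with a window in the table had one in at least 1 window (44.4%, against 41.7% of tested genes). Among the called members, EED, PRMT1 and SMYD3 had a CCAAT box in at least 1 window, and SETD2, KDM7A and KDM4C did not. The KDM4C window holds 2 E-boxes, a motif found in 8.3% of the windows of tested genes. PRMT1, SETD2 and KDM7A have a GC box each, as 63.2% of windows do, and KDM7A and KDM4C an ETS site each, as 14% do, so both motifs were found in windows of members that were higher and of members that were lower. The NRF1 and YY1 cores, found in 4.9% and 3.5% of windows, were in none of the 5 shown. SMYD3, not shown, had an NRF1 core and a GC box in at least 1 window. The KDM7A window held 50 CpG pairs and the other 4 held 17 in PRMT1, 14 in PRMT5, 21 in SETD2 and 21 in KDM4C, against a median of 20 over tested genes and 24.5 over the 90 windows of members. A match is a description of the sequence, and no binding was measured.

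The 5 members listed by role as H3K36 writers had positive changes, of which that of SETD2 passed the test. SMYD2, which also methylates H3K36 but is listed by another role, had a negative log2 change of -0.21. Of all tested genes 49.8% had a positive change. SETD2, the enzyme that adds the third methyl group to H3K36 (NCBI Gene 29072, chromosome 3, 47016436 to 47164840), was at 149, 145 and 154 CPM in complete medium and at 180.2, 168 and 187 CPM in the deprived medium. Every deprived library lay above every complete library. SETD2 rose by a log2 change of 0.26 (SE 0.062, adjusted p = 0.0403 by edgeR), or 19.3%. NSD1, a writer of H3K36 dimethylation, was at 199, 205 and 213 CPM and at 224, 222 and 246.5 CPM, without overlap (log2 change 0.16, SE 0.064, adjusted p = 0.134 by edgeR, and 0.0290 with the replicate block). NSD3, its paralog, was at 126, 134 and 142 CPM and at 135, 150.2 and 164 CPM. Its groups overlapped through library 1 of the deprived medium (log2 change 0.16, adjusted p = 0.224 by edgeR, and 0.0374 with the block). NSD2 and ASH1L, which also methylate H3K36, had log2 changes of 0.12 and 0.11 and were not called in either fit (adjusted p = 0.231 and 0.247 by edgeR). DOT1L, the writer of H3K79 methylation, was at 59.4 ± 3.07 and 68.9 ± 4.28 CPM, and its log2 change was 0.21 (edgeR SE 0.072, adjusted p = 0.0919, or 0.0246 once blocked). In GENCODE 29, opposite-strand exons of AC004490.1 and PLEKHJ1 overlap 6.78% and 4.69% of the exonic bases of DOT1L.

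Within PRC2, the complex that methylates H3K27, the core subunit EED was lower while its partners were not called. EED, which binds the finished mark and stimulates the enzyme (NCBI Gene 8726, chromosome 11, 86244753 to 86287615), was at 42.2, 49.6 and 46.7 CPM in complete medium and at 34.3, 36.1 and 38.7 CPM in the deprived medium. The groups did not overlap. EED fell by 0.35 on the log2 scale (SE 0.084, adjusted p = 0.0403 by edgeR), a change of -21.3%. SUZ12, the scaffold subunit, was at 186 ± 4.42 and 180.1 ± 4.73 CPM, with a log2 change of -0.05 with a 95% interval of -0.17 to 0.08. EZH2, the catalytic subunit of dividing cells, was at 124 ± 3.34 and 126 ± 10.4 CPM, with a log2 change of 0.03 with an interval of -0.13 to 0.18. EZH1, the alternative catalytic subunit, was at 37.3, 32.7 and 37.5 CPM and at 40.8, 41.7 and 41.8 CPM, higher in every deprived library (log2 change 0.21, SE 0.077, adjusted p = 0.114 by edgeR, and 0.0452 with the block). The log2 ratio of EED to EZH2 was -1.52, -1.36 and -1.39 in complete medium and -1.74, -1.84 and -1.80 in the deprived medium.

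Writers of H3K4 methylation were not called, and none of the 7 enzymes passed with the block. KMT2A, the founding member of the family, was at 225 ± 5.12 and 224 ± 9.01 CPM, with a log2 change of -0.003 with a 95% interval of -0.13 to 0.13. The other 6 (KMT2B, KMT2C, KMT2D, SETD1A, SETD1B and SETD7) had log2 changes of 0.05 to 0.16, and the median over the 7 was 0.10. KMT2E, a SET protein of the same family with little known enzyme activity, had a log2 change of 0.12 (adjusted p = 0.221 by edgeR). The 7 members that act on H3K9 were not called in either fit and ranged from -0.15 for SUV39H2 to 0.21 for PRDM2. Without both libraries numbered 1, SUV39H1, PRDM2 and the H3K4 writers SETD1A and SETD1B were called. SETD1B was also called without replicate 1 of the deprived medium. Opposite-strand exons overlap 20.3% of the exonic bases of SUV39H1 (AC231533.1), 13.4% of those of SETDB1 (CERS2) and 8.12% of those of EHMT2 (EHMT2-AS1).

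The remaining lysine writers had negative changes. SMYD3, a methyltransferase of a cytoplasmic kinase as well as of histones (NCBI Gene 64754, chromosome 1, 245749347 to 246507279), was at 24.9, 28.2 and 25.6 CPM in complete medium and at 22, 18.0 and 18.8 CPM in the deprived medium. The groups did not overlap, and library 1 of the deprived medium was the highest of its group. SMYD3 fell by 0.42 on the log2 scale (SE 0.10, adjusted p = 0.0383 by edgeR), a change of -25.2%. Its paralog SMYD2, which methylates H3K36 and p53, was at 34.1 ± 3.90 and 29.6 ± 2.35 CPM, with a log2 change of -0.21 (adjusted p = 0.212 by edgeR, and 0.0425 with the block). The enzymes of H4K20 were not called in either fit: KMT5A, which adds the first methyl group, had a log2 change of -0.09, and KMT5B and KMT5C, which add the next ones, had changes of -0.14 and -0.31. KMT5C was rare, at 8.16 ± 0.277 and 6.56 ± 0.817 CPM.

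**Figure D2:**
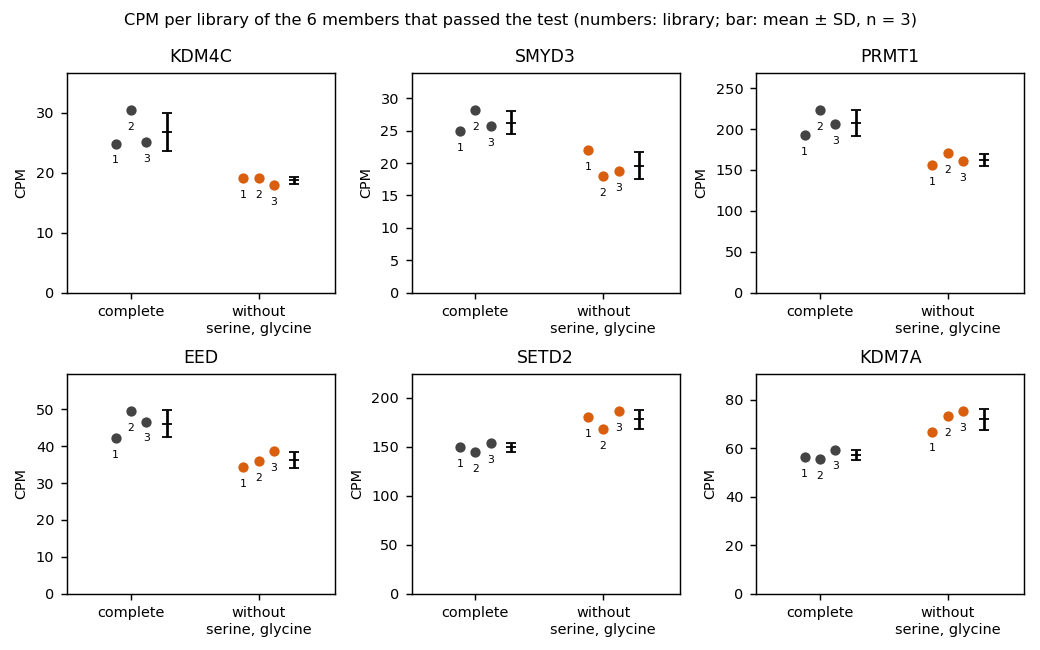
CPM of the 6 members that passed the test (vertical axes from 0), 1 point per library with its number, for complete medium (grey) and the deprived medium (orange), with the mean ± SD of 3 libraries as a bar. In each panel all 3 deprived libraries lie on one side of all 3 complete libraries, below them for KDM4C, SMYD3, PRMT1 and EED and above them for SETD2 and KDM7A.

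The DNA methyltransferases were not called with all 6 libraries. DNMT1, which copies methylation onto new DNA strands, was at 229, 210 and 215 CPM in complete medium and at 226, 186 and 195 CPM in the deprived medium. The groups overlapped through library 1 of the deprived medium, and library 1 was the highest in both media. Its log2 change was -0.10 with a 95% interval of -0.28 to 0.07 (adjusted p = 0.426 by edgeR). Without both libraries numbered 1 the log2 change of DNMT1 was -0.15 (adjusted p = 0.0351 by edgeR). UHRF1, which guides DNMT1 to half-methylated DNA, was at 162, 149.8 and 142 CPM and at 139, 132 and 132 CPM, without overlap (log2 change -0.18, SE 0.065, adjusted p = 0.116 by edgeR, and 0.0270 with the block). Its paralog UHRF2, outside the member list, was higher (92.8 ± 4.05 against 115.3 ± 8.18 CPM), with a log2 change of 0.31 (adjusted p = 0.0320 by edgeR). The log2 ratio of UHRF1 to UHRF2 was 0.87, 0.70 and 0.55 in complete medium and 0.34, 0.24 and 0.08 in the deprived medium, without overlap.

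The de novo methyltransferases were rare. DNMT3A was at 19.6, 19.2 and 21.0 CPM in complete medium and at 14.2, 17.6 and 19.9 CPM in the deprived medium, overlapping, with a log2 change of -0.21 (95% interval -0.48 to 0.07, adjusted p = 0.301 by edgeR) and of -0.09 without replicate 1 of the deprived medium. DNMT3B was at 2.99, 5.32 and 2.76 CPM and at 2.21, 3.64 and 2.71 CPM, with a log2 change of -0.37 (95% interval -1.01 to 0.27), and of -0.01 without replicate 2 of complete medium. The interval of DNMT3B reaches from a fall of over 1 log2 unit to a rise, so no difference was detectable at this depth.

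For DNMT3A (NCBI Gene 1788, chromosome 2, 25227874 to 25342590) the mix of transcripts read from the table differed between the media. The ratio of a gene's count to its FPKM value, scaled by the library's total count, gives an effective transcript length. It is the one the authors' estimate implied in that library, called the implied length here. For DNMT3A it was 6349, 6535 and 6481 bases in complete medium and 7001, 8228 and 8026 bases in the deprived medium, without overlap, 20.1% longer on average. DNMT3A is known to have a long and a short protein isoform from separate promoters, but the table does not say which transcripts carried the shift. Of 55 members with at least 1 FPKM in every library it was the single one whose implied length moved by 10% or more without overlap (1.82%), against 96 of 10925 genes (0.88%). It was singled out after its values were seen, and no test was made. On the per-length TPM scale DNMT3A was at 5.87 ± 0.371 and 4.36 ± 0.369.

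The TET enzymes were not called. TET3 was at 55.7 ± 2.39 and 61.2 ± 4.41 CPM, with a log2 change of 0.14 (95% interval -0.03 to 0.30, adjusted p = 0.258 by edgeR). TET2 was at 18.8 ± 0.615 and 19.8 ± 1.11 CPM, with a log2 change of 0.07 (95% interval -0.12 to 0.27). TET1 had 2, 2 and 0 counts in complete medium and 3, 3 and 2 counts in the deprived medium, at or under a floor of 3 counts per library, so it was not tested and no fold is given.

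**Figure D3:**
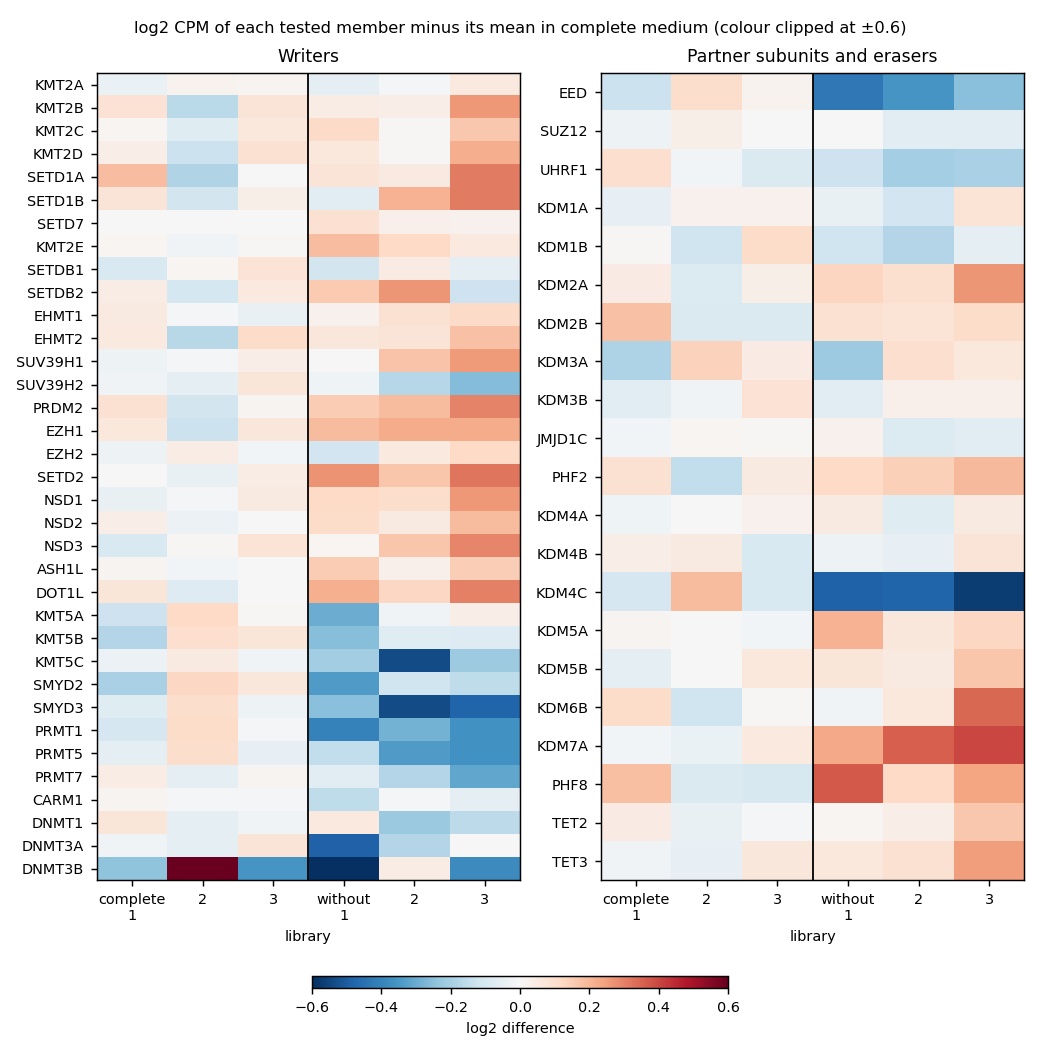
Log2 CPM of each tested member in each library minus its mean in complete medium (colour, clipped at ±0.6), with the 3 complete libraries left of the line and the 3 deprived libraries right of it. SETD2, KDM7A and EZH1 are above zero, and PRMT1, SMYD3, EED and KDM4C below zero, in all 3 deprived libraries, and DNMT3B, at under 6 CPM, varies most among replicates.

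Of the erasers, KDM4C had the largest fall of any tested member. KDM4C, a JmjC enzyme that removes tri- and dimethyl marks from H3K9 and H3K36 (NCBI Gene 23081, chromosome 9, 6720863 to 7175648), was at 24.9, 30.5 and 25.1 CPM in complete medium and at 19.0, 19.1 and 18.0 CPM in the deprived medium. The groups did not overlap, and the 3 deprived values lay close together. KDM4C fell by 0.52 on the log2 scale (SE 0.10, adjusted p = 0.0246 by edgeR), a change of -30.2%. Its paralogs with the same target residues were level: KDM4A had a log2 change of 0.01 (95% interval -0.12 to 0.15) and KDM4B one of -0.0009 (95% interval -0.17 to 0.17). The log2 ratio of KDM4C to KDM4A was -1.98, -1.71 and -2.02 in complete medium and -2.45, -2.31 and -2.53 in the deprived medium. In GENCODE 29, KDM4A-AS1 overlaps 8.97% of the exonic bases of KDM4A.

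KDM7A and PHF8 form with PHF2 a family of JmjC demethylases that read H3K4 trimethylation through a PHD finger. KDM7A, which acts on H3K9 and H3K27 (NCBI Gene 80853, chromosome 7, 140084746 to 140176983), was at 56.3, 55.5 and 59.4 CPM in complete medium and at 66.8, 73.2 and 75.4 CPM in the deprived medium. The groups did not overlap. KDM7A rose by a log2 change of 0.33 (SE 0.069, adjusted p = 0.0280 by edgeR), or 25.8%, the largest rise of any tested member. PHF8, which acts on H3K9 and H4K20, was at 93.3, 77.6 and 77.0 CPM and at 106, 89.5 and 96.9 CPM. Its groups overlapped because library 1 was high in both media, and its log2 change was 0.24 (SE 0.091, adjusted p = 0.126 by edgeR, and 0.0112 with the block). PHF2 was at 57.3 ± 4.95 and 63.5 ± 1.63 CPM, with a log2 change of 0.15 (adjusted p = 0.232 by edgeR).

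The other erasers moved little. KDM2A, an H3K36 demethylase that binds unmethylated CpG islands, was at 110.6 ± 5.51 and 124 ± 7.77 CPM, without overlap, a log2 change of 0.16 (adjusted p = 0.152 by edgeR, and 0.0411 with the block). KDM5B, an H3K4 demethylase, had a log2 change of 0.10 (95% interval -0.04 to 0.23), and its paralog KDM5A one of 0.13. KDM6B, an inducible H3K27 demethylase, was at 40.7, 34.7 and 37.9 CPM and at 37.1, 39.4 and 47.8 CPM, overlapping, with a log2 change of 0.13 (95% interval -0.10 to 0.36). KDM3A, KDM3B and JMJD1C, which act or are related to enzymes that act on H3K9, had log2 changes of -0.02, -0.003 and -0.04. The flavin enzyme KDM1A, an H3K4 demethylase of corepressor complexes, was at 257 ± 7.48 and 253 ± 17.6 CPM, with a log2 change of -0.03 (95% interval -0.17 to 0.12), and KDM1B had one of -0.12 (adjusted p = 0.354 by edgeR).

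Ratios between related genes within a library do not depend on library size. For 12 pairs, chosen with these data known, the mean log2 ratios of the media were compared by a two-sided exact permutation test of 3 against 3 libraries, for which 0.1 is the smallest possible p. In 8 pairs the ratios did not overlap between the media, and the exact p was 0.1 (0.15 after Benjamini-Hochberg adjustment over 12 pairs). The ratio of KDM4C to KDM4A differed by -0.53 on the log2 scale, that of KDM4C to KDM4B by -0.51, that of UHRF1 to UHRF2 by -0.49, that of EED to EZH2 by -0.37, that of EED to SUZ12 by -0.30, that of PRMT1 to CARM1 by -0.28, and that of EZH1 to EZH2 by 0.19. The ratio of SETD2 to KDM4C, a writer and an eraser of H3K36 trimethylation, had a mean log2 value of 2.48 in complete medium and 3.25 in the deprived medium. That pair joins a member called higher with the member that fell most, so it restates their calls. Each other pair without overlap, except EZH1 to EZH2, also holds a called gene. Those ratios reuse the values behind the calls and are not independent of them. PRMT5 to CARM1, SMYD3 to SMYD2, KDM7A to PHF8 and UHRF1 to DNMT1 overlapped between the media (exact p of 0.3, 0.3, 0.5 and 0.5). No pair could reach 0.05 in this design.

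The direction of the members varied with their implied effective transcript length. Of 23 members with an implied length of 6000 bases or over, 19 had a positive log2 change (82.6%) and the median was 0.12, while of 1382 tested genes of that length 64.5% were positive with a median of 0.07. The 3 members under 1500 bases, PRMT1, SMYD3 and SMYD2, were all negative with a median of -0.35, while 34.7% of 2229 tested genes of that length were positive with a median of -0.08. Between these, 2 of 10 members of 1500 to 3000 bases and 10 of 19 of 3000 to 6000 bases were positive, against 44.9% and 55.9% of tested genes. Across 55 members the rank correlation of implied length with log2 change was 0.63, and across 10916 tested genes it was 0.24, a description over genes that share the same 6 libraries. For the differences of same-numbered libraries it was 0.57, 0.54 and 0.61 over the members. The H3K36 writers are long (7050 to 10652 bases) and the arginine methyltransferases are short (1024 to 2950 bases), and the part of length in these changes was not tested. The called members had implied lengths of 8185 bases (SETD2), 8805 (KDM7A), 4163 (KDM4C), 1828 (EED), 1284 (SMYD3) and 1024 (PRMT1).

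**Figure D4:**
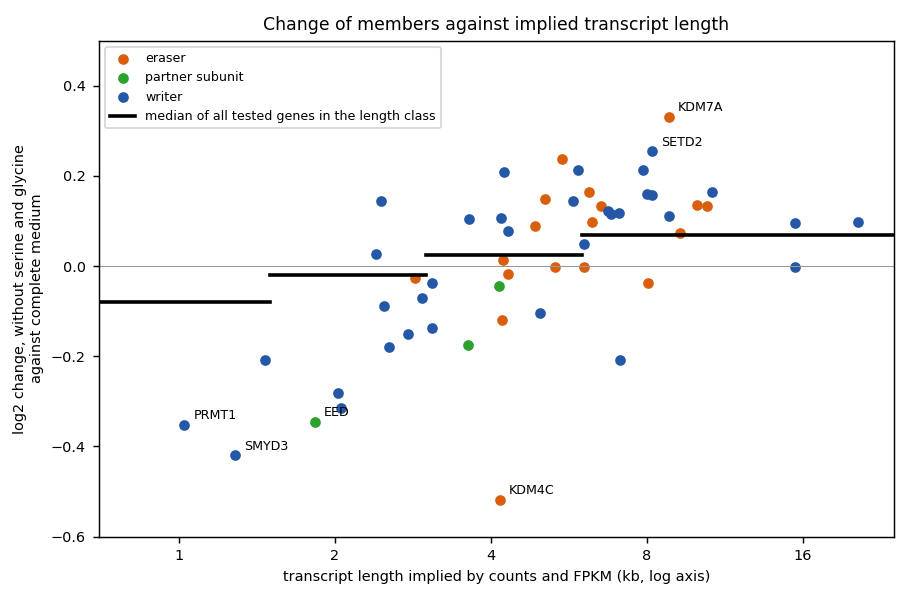
Log2 change of 55 members (deprived against complete medium, vertical axis) against implied effective transcript length (horizontal axis, kb, log scale). The length comes from the deposited counts and FPKM, and black lines give the median of all tested genes in 4 length classes. Short members lie mostly below zero and long members mostly above it, in the same direction as the black lines, and KDM4C has the lowest value.

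Levels differed far more among the members than between the media. On the TPM scale, which corrects for transcript length, PRMT1 was the most abundant writer at 383 ± 18.5 TPM in complete medium and 313 ± 8.99 TPM in the deprived medium. It was followed by PRMT5 at 130 ± 5.74 and 111 ± 13.3 TPM and KMT5A at 120.3 ± 6.62 and 117 ± 10.5 TPM, which overlapped each other, and by EZH2 and DNMT1. DNMT3B was the rarest writer at 1.85 ± 0.684 and 1.47 ± 0.332 TPM. Among erasers KDM1A led at 171 ± 1.72 TPM in complete medium and at a mean of 174 TPM in the deprived medium, and TET1 was lowest at 0.0133 and 0.0267 TPM. SUZ12 and UHRF1, at 85.0 ± 1.11 and 79.6 ± 7.31 TPM in complete medium, overlapped, and EED was the least abundant partner protein at 48.0 ± 2.41 TPM. The median TPM level over both media was 32.5 for writers and 20.02 for erasers, against 23.5 for all tested genes. The summed TPM of the 35 writers was 1623 to 1630 in complete medium and 1567 to 1618 in the deprived medium. Its means were 1626 and 1589, a smaller fall than that of PRMT1 alone (383 to 313), so the other writers together did not fall. The median log2 change of single writers was 0.08. The summed TPM of the 19 erasers was 522 to 550 in complete medium and 542 to 587 in the deprived medium. No difference between the classes was tested.

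**Figure D5:**
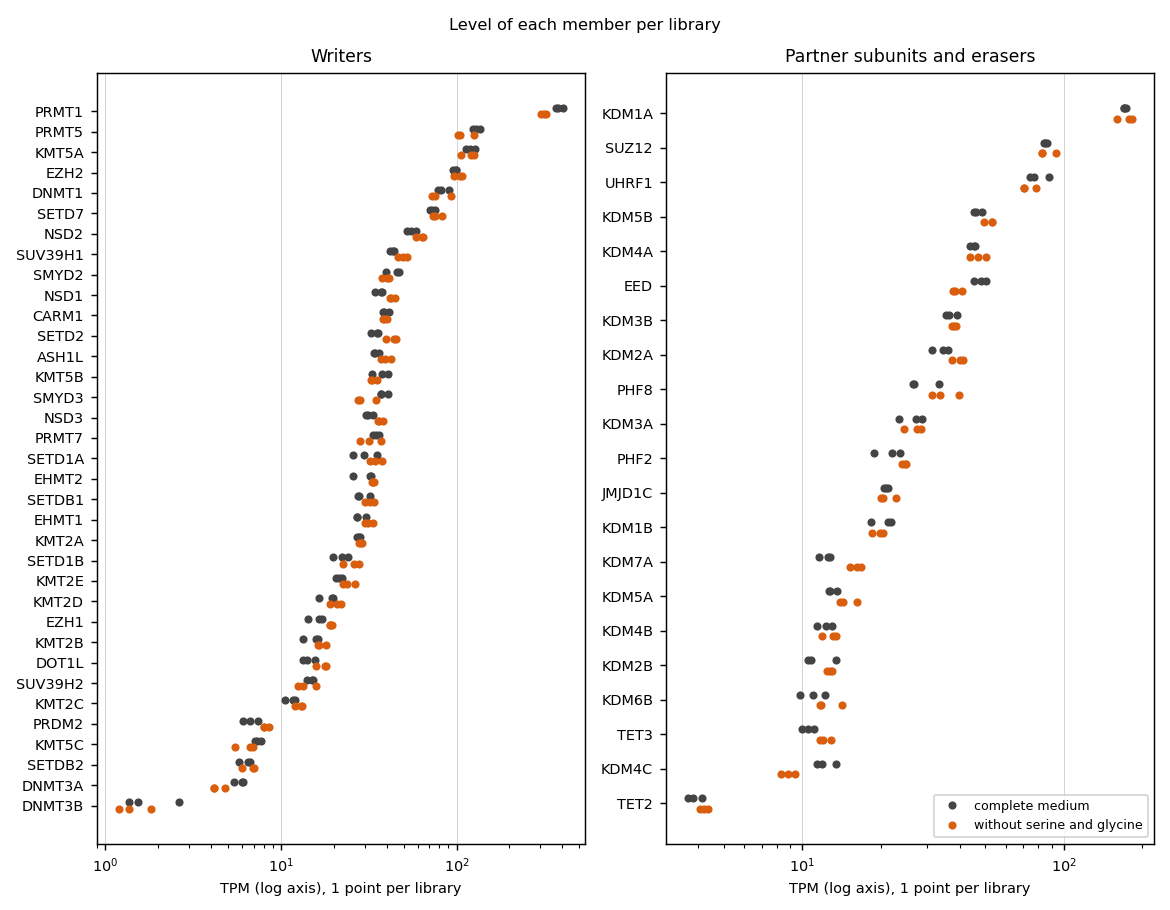
TPM of each member except TET1 (horizontal axis, log scale), 1 point per library, for complete medium (grey) and the deprived medium (orange), ordered by mean level, with writers on the left and partner proteins and erasers on the right. Single libraries span from 1.2 TPM for DNMT3B to 404 TPM for PRMT1, and in most rows the colours overlap or lie side by side.

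Other genes of methylation biology were called about as often as the members. Of 72 tested genes in 6 further lists, 2 were higher and 5 lower (9.72%, against 6.95% of all tested genes), and with the block 7 and 9 (against 11.1% and 13.2%), so the share called is near the background. The list of S-adenosylmethionine and 2-oxoglutarate supply held 5 of these calls, with 1 of 13 higher and 4 lower, against 2.73% and 4.22% of all tested genes. OGDH, which consumes 2-oxoglutarate, was at 160 ± 8.37 and then 126 ± 7.99 CPM, lower by a log2 change of -0.34 (adjusted p = 0.0265 by edgeR). D2HGDH, which turns 2-hydroxyglutarate back to 2-oxoglutarate, was at 9.10 ± 0.272 and 5.51 ± 0.894 CPM, lower by a log2 change of -0.72 (adjusted p = 0.0265 by edgeR). AHCY, which clears the by-product of methylation, and IDH2, which makes 2-oxoglutarate, fell by 0.36 and 0.48 on the log2 scale (adjusted p = 0.0393 and 0.0411 by edgeR) and were named after their values were seen. AHCYL2, a relative of AHCY, rose by 0.32 (adjusted p = 0.0265 by edgeR). MAT2A, which makes S-adenosylmethionine, was also named after its values were seen, at 432 ± 40.3 and 426 ± 84.8 CPM with a log2 change of -0.02.

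Of 15 other methyltransferases, PRMT3 was lower and 0 were higher. Of 14 readers and repair genes UHRF2 was higher and 0 were lower. None of 12 COMPASS subunits, 9 PRC2 accessory subunits and 9 other demethylases was called, and 2, 1 and 1 of them passed with the block. CXXC1, a COMPASS subunit that binds unmethylated CpG, had a log2 change of 0.35 (adjusted p = 0.0529 by edgeR, and 0.00548 with the block), while PSIP1 had -0.33 (edgeR adjusted p = 0.113, or 0.00224 once blocked). RBBP4, a histone-binding subunit of PRC2, had a log2 change of 0.24 (adjusted p = 0.0830 by edgeR, and 0.0303 with the block), while the dioxygenase JMJD6 had 0.37 (edgeR adjusted p = 0.0671, or 0.00648 once blocked).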

How the data were processed

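The tools named in the submitters' processing notes are RSEM 1.3.1 and Bowtie2 2.3.4.3, with the build GRCh38, and no role or order is stated. The gene annotation was not named. Each gene has expected counts deposited by the authors, of which 15.2 to 16% per library were not whole. FPKM and TPM values were deposited beside them. Of the 57 members, 8 had counts that were not whole in some library: KMT2C, KMT2E, SETDB2, SUV39H2, DOT1L, SMYD3, PRMT7 and CARM1. Some of their reads were divided with other genes, and whether by similar sequence or by overlapping exons was not tested.

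Expected counts were rounded and tested over all genes in R 4.3.3 with edgeR 4.0.16 (filterByExpr, minimum count 10 and minimum total 15, TMM, robust quasi-likelihood fit, medium as the only term). Two-sided p-values received Benjamini-Hochberg adjustment over 12548 genes, and a call needed 0.05. The SE is the absolute log2 change divided by the square root of F. Log2 changes are deprived relative to complete medium. DESeq2 1.42.0 and limma 3.58.1 were alternatives. The procedure was tested on simulated counts for 12548 genes, 3 against 3, where it found 87 of 100 genes simulated at 1.5-fold and, at 2-fold, 97 of 100. Of 201 calls, 17 were false. All tested members changed by less than 1.5-fold, where recovery was not simulated.

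Same-numbered libraries deviated together (correlations across genes of 0.326, 0.141 and 0.190), which meets the criterion set for pairing, though library 3 of complete medium and library 2 of the deprived medium reached 0.163. The labels give no shared batch or day, so medium stayed the only term of the fit used for calls and the block was an alternative. Replicates differed beyond sampling noise (chi-square per gene 2.76 to 19.1). Pairs with library 1 had values of 13.5 and 9.05 in complete medium and 16.9 and 19.1 in the deprived medium. Libraries 2 and 3 had 4.14 in complete medium and 2.76 in the deprived medium.

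Members, lists and tests were chosen with earlier results of these data known. Named genes were the called members, those called only with the block, in each class the smallest p-values, largest changes and extreme levels, a fixed set of 10, and up to 3 of each further list by smallest p. Promoter sequences and positions are from RefSeq. The windows cover 54 of 57 members.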

Additional observations from a re-analysis of the deposited data

How the results depend on the processing

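The 6 called members kept their sign in all 16 alternatives. They remained called with RLE size factors, library totals, DESeq2, limma voom and no filter on low counts, and PRMT5 was also called by DESeq2 (adjusted p = 0.0247) and with no filter (adjusted p = 0.0383 by edgeR). Counts below are given as higher and lower. With limma on log2(FPKM + 1) they were 106 and 234 for all genes, 0 and 2 for members, 0 and 1 for writers and 0 for erasers higher, with 2 related genes lower. A pseudocount of 0.1 gave 109 and 247, 0 and 2, 0 and 1, and 0, with 2 related genes lower, and KDM4C and PRMT1 were the members called in both. With limma on log2(TPM + 1) they were 36 and 81 for all genes, 0 and 0 for members, writers and erasers, and 1 and 0 for related genes. DESeq2 called 5 related genes higher. With the replicate block they were 1387 and 1657 for all genes, 8 and 7 for members, 5 and 4 for writers, 3 for erasers higher, and 7 and 9 for related genes. Without both libraries numbered 1 they were 1696 and 1947, 14 and 8, 9 and 6, 5 for erasers higher, and 10 and 10. Leaving out 1 library at a time gave 0 to 758 and 0 to 979 for all genes, 0 to 4 and 0 to 5 for members, 0 to 3 and 0 to 3 for writers, 0 to 2 and 0 to 1 for erasers, and 0 to 5 and 0 to 7 for related genes. The median log2 change of the writers was 0.1023 with library totals, 0.1073 and 0.1135 with FPKM (pseudocounts 1 and 0.1), 0.1352 with TPM, and 0.0382 to 0.1008 without 1 library, and that of the erasers was 0.0214 to 0.0931 without 1 library. Over all tested genes the median was -0.0007 in the main fit and 0.0252 with library totals. It was 0.0178 and 0.0215 with FPKM and 0.0422 with TPM, so those settings raised it as well as the writers' median. Without 1 library the median over all tested genes was -0.0029 to 0.0014. The cause of these shifts was not tested. Of 704 values of single genes under alternatives, 592 stayed on their side of the threshold, 65 lost it, 47 gained it and 0 changed sign with a call. With 3 libraries per medium, changes as small as those of most members are at the edge of what this depth and spread can show, and 15.2 to 16% of the deposited count values per library were not whole.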
